A study of Rattus norvegicus with 6 samples.

Results

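The genes for neuropeptides and calcitonin family peptides followed here encode neuropeptide Y (Npy), the calcitonin gene-related peptides (Calca, Calcb), adrenomedullin (Adm) and proenkephalin (Penk), the granin family proteins Vgf and Scg2, and the receptor subunits Calcrl, Ramp1 and Ramp2. They were measured in cultures of olfactory ensheathing cells (OECs) of the rat, glia that wrap the axons of olfactory neurons. The 10 genes, of 14371 annotated on the arrays, were taken by symbol: all probe sets of either array type whose single annotated gene was one of them, which gave 23 of 39782 probe sets other than controls. The U34A array held 10 of 8740 and the RAE2.0 array 13 of 31042. The list was chosen partly on measured values, the signals of Calcb, which had one of the largest differences between OEC Lp and OEC Ep, so Calcb and the comparison of OEC Lp with OEC Ep are described here and not tested. Of the 10 genes, 8 had probe sets on both array types, and Ramp1 and Ramp2 had them on RAE2.0. A floor, the 40th percentile of all signals of an array type, stood for signals too dim to order (128.4 on U34A, 168.1 on RAE2.0). Of the 23 probe sets, 22 exceeded it on at least 1 array, and the remaining one, for Calcrl on U34A, was below it on all 3.

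The study measured total RNA of 3 populations with 1 U34A and 1 RAE2.0 array each, 6 arrays in all. TEG3 is a clonal line, and so 1 clone, obtained by transfecting OECs of Wistar rats aged 60 days with a plasmid coding for the SV40 large T antigen. OEC Lp cells were primary cultures passed for over 50 population doublings, and OEC Ep cells were primary cultures kept for 1 week with less than 3 doublings. Both came from the olfactory nerve layer of Wistar rats at postnatal day 21. All 3 populations grew in M3 medium, which is DMEM with 3% fetal bovine serum, 20 µg/ml bovine pituitary extract and 2 µM forskolin, a compound that activates adenylyl cyclase. The design text gives 2 RNA pools per population, each of 3 cultures, with 1 rat per culture for OEC Ep. Which pool went on which array is not stated, so the p-values measure the spread between arrays, which may be technical.

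The shares of probe sets above the floor lay between 59.24 and 61.59% on the U34A arrays and between 59.08 and 61.8% on the RAE2.0 arrays. RNA integrity was read from the GAPDH control probes, whose 3' to 5' signal ratio was 1.54 in TEG3, 1.52 in OEC Lp and 1.96 in OEC Ep on U34A. On RAE2.0 it lay between 0.981 and 1.02. Of the 17 OEC and Schwann cell markers measured on RAE2.0, 6 exceeded the floor in TEG3 and 6 in OEC Lp, against all 17 in OEC Ep. On U34A 13 of 15 exceeded it in TEG3 and 13 in OEC Lp, against all 15 in OEC Ep. S100b, Ngfr and Gfap, which define these glia, were at the floor in TEG3 and in OEC Lp on RAE2.0. On U34A Ngfr was above it, at 3625 in TEG3, 2564 in OEC Lp and 12730 in OEC Ep, and S100b was close to it, at 131.7 in TEG3 and 128.6 in OEC Lp, against 6123 in OEC Ep.

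Neuropeptides are cut from precursor proteins by proteases of the secretory pathway and stored in dense-core granules together with granins. Neuropeptide Y is a known product of ensheathing cells of the olfactory nerve. Calca gives calcitonin or the alpha form of calcitonin gene-related peptide (CGRP) by alternative splicing, and Calcb gives the beta form. The receptor encoded by Calcrl binds CGRP when paired with the Ramp1 protein and adrenomedullin when paired with the Ramp2 or Ramp3 protein. Several genes of this kind are known targets of cyclic AMP signalling, which acts through the factor CREB at the cyclic AMP response element.

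Because the medium of all cultures held forskolin, which raises cyclic AMP, the promoters of the members were searched for that element. RefSeq promoters of build GRCr8, from 250 bases before to 50 after the start, were given for 7 of the 10 members, and those of Calcb, Penk and Ramp2 were not analysed here. The motifs were the full element TGACGTCA and the shorter TGACG, on both strands, with each full element also holding the shorter one. The full element was found in 612 of 33469 promoters (1.83%), Vgf and Scg2 among them, at 90 to 83 bases before the start in Vgf and 123 to 116 bases before it in Scg2. The shorter element occurred in 7097 promoters (21.2%), and of the members without the full element Calca alone held it, 112 to 108 bases before the start. Npy, Adm, Calcrl and Ramp1 had neither in these windows. Below are the promoters of Npy and Calca, the members with a called difference, and of Vgf and Scg2, the members with the full element, with the elements in capitals. Npy lies at chr4:80211861-80212160 on the plus strand, Calca at chr1:178317480-178317779, Vgf at chr12:25276971-25277270 and Scg2 at chr9:88256817-88257116, the last 3 on the minus strand.
Npy: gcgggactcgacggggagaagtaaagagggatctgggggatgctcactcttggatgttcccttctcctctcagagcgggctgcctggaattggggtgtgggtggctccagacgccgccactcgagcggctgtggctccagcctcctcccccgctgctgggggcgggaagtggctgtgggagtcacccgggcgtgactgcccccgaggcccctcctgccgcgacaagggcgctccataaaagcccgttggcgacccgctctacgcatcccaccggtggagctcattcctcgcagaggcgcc
Calca: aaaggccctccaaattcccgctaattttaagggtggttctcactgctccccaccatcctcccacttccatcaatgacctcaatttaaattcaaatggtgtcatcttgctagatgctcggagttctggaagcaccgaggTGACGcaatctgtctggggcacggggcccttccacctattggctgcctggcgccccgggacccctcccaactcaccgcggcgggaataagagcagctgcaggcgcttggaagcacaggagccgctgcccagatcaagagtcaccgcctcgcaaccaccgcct
Vgf: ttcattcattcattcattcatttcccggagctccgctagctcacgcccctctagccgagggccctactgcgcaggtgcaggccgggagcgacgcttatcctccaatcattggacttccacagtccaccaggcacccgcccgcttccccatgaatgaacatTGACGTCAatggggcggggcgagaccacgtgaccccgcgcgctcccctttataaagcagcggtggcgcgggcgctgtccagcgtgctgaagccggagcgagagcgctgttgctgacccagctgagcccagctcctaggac
Scg2: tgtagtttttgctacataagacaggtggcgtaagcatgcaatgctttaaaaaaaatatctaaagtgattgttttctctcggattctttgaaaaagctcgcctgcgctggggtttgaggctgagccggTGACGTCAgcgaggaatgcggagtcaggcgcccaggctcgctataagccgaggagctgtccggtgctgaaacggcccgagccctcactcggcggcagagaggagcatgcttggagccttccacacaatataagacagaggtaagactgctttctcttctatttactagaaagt
A match of letters is a description of the sequence and does not show that a factor binds there.

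The peptide precursors Npy, Calca and Calcb shared 1 pattern, a signal that was high in OEC Ep and at or near the floor in TEG3 and in OEC Lp on both array types. All signals are given on the authors' linear scale, and levels of different genes are not compared, since each probe set has its own response. In bulk RNA, fewer cells of a type and less RNA per cell cannot be told apart.

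Npy, the precursor of neuropeptide Y, had a U34A signal of 243 in TEG3, 118 in OEC Lp and 2519 in OEC Ep. On RAE2.0 its signal was 22 in TEG3, 174 in OEC Lp and 4514 in OEC Ep. OEC Ep stood highest on both array types, while TEG3 and OEC Lp changed places between them. Npy fell in TEG3 relative to OEC Ep by 4.06 ± 0.42 on the log2 scale (SE, n = 2 arrays each; limma adjusted p = 0.0114). TEG3 was 10.4-fold lower on U34A (log2 -3.37) and, being at the floor there, at least 26.9-fold lower on RAE2.0 (log2 -4.75). TEG3 minus OEC Lp was 0.44 ± 0.42 on the log2 scale (limma adjusted p = 0.688), with opposite signs on the array types. OEC Lp was at least 19.6-fold lower than OEC Ep on U34A and 26.0-fold lower on RAE2.0, given with no test.

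Calca, the precursor of calcitonin and alpha-CGRP, was covered by 2 probe sets on U34A and 3 on RAE2.0. On U34A they read 131 and 68 in TEG3, 83 and 74 in OEC Lp, and 1970 and 2162 in OEC Ep. On RAE2.0 they read 23, 84 and 70 in TEG3, 30, 11 and 82 in OEC Lp, and 2308, 1225 and 6191 in OEC Ep. All 5 were far higher in OEC Ep, and 4 of them were below the floor in TEG3 and all 5 in OEC Lp. Calca fell in TEG3 relative to OEC Ep, with a log2 difference of -3.97 ± 0.29 (SE, n = 2 arrays each; limma adjusted p = 0.00495). The 4 probe sets below the floor in TEG3 passed the filter through OEC Ep alone, so a fall was the only outcome open to them. The p-value with the filter is therefore not taken as support. With no filter on dim probe sets the limma adjusted p was 0.0272. RNA of Calcb may have bound these probes too, as given below. By probe set TEG3 was 15.0-fold and at least 16.9-fold lower on U34A, and at least 13.7-fold, 7.29-fold and 36.9-fold lower on RAE2.0. The array types gave mean log2 differences of -3.99 on U34A and -3.95 on RAE2.0. These means are mostly bounds set by the floor, so neither their closeness nor the SE gives the precision of the fall. With the floor at the 20th percentile the log2 difference was -4.85, and at the 60th it was -2.48. OEC Lp was at least 15.4-fold and 16.9-fold lower than OEC Ep on U34A and at least 7.29-fold to 36.9-fold lower on RAE2.0, with no test, and no order between TEG3 and OEC Lp can be read from signals at the floor.

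Calcb, the precursor of beta-CGRP, had a U34A signal of 103 in TEG3, 65 in OEC Lp and 10216 in OEC Ep. On RAE2.0 it was 63 in TEG3, 25 in OEC Lp and 37716 in OEC Ep. Both TEG3 and OEC Lp were below the floor on both array types, and OEC Ep was the only population with a signal above it. The log2 difference of TEG3 from OEC Ep, and of OEC Lp from OEC Ep, was -6.32 on U34A and -7.81 on RAE2.0, which is at least 79.6-fold lower on U34A and at least 224.5-fold lower on RAE2.0. The values of both comparisons are equal because TEG3 and OEC Lp were set to the same floor. Calca and Calcb are neighbouring protein-coding genes on chromosome 1 and paralogs of like sequence, so the possibility that RNA of one bound probes of the other makes their separate values uncertain, and this was not tested.

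**Figure D1:**
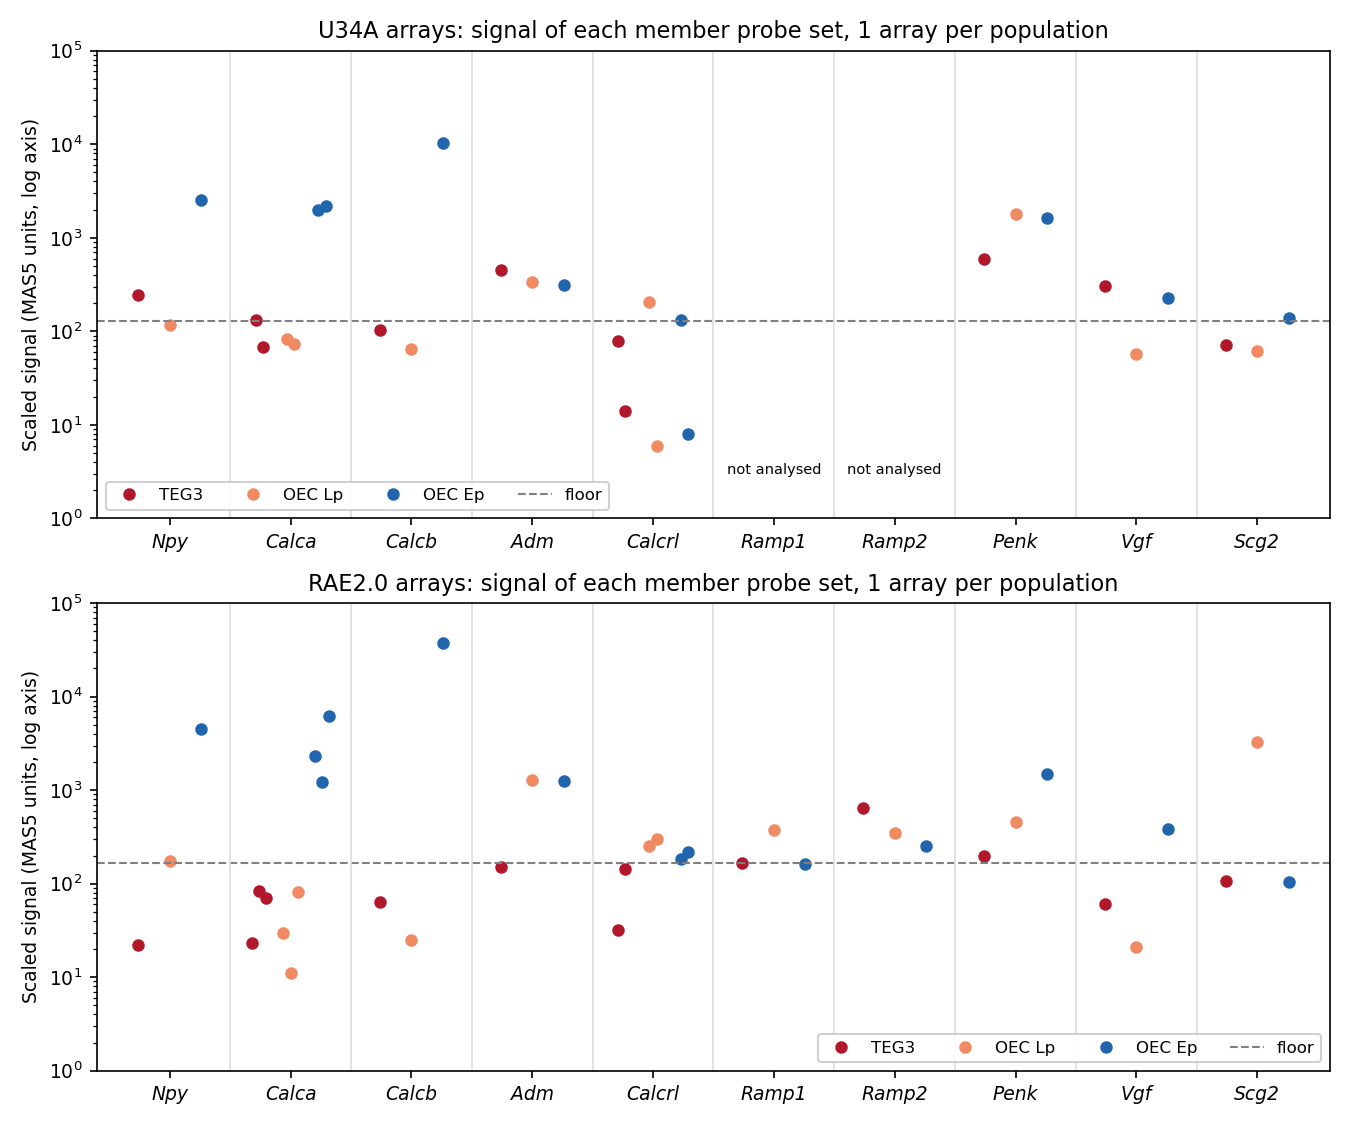
Scaled signal in MAS5 units (log axis) of every member probe set on the U34A arrays (top) and the RAE2.0 arrays (bottom), 1 point per probe set and array, with TEG3, OEC Lp and OEC Ep from left to right and the floor dashed. The OEC Ep points of Npy, Calca and Calcb stand well above those of TEG3 and OEC Lp on both array types. Adm, Vgf and Scg2 order the populations differently on the 2 types. Npy also does so for TEG3 and OEC Lp, and Penk for OEC Lp and OEC Ep.

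Adm, the precursor of the vasodilator adrenomedullin, read 454 in TEG3, 336 in OEC Lp and 315 in OEC Ep on U34A. On RAE2.0 it read 150 in TEG3, 1279 in OEC Lp and 1240 in OEC Ep. TEG3 was thus highest on one array type and, below the floor, lowest on the other, while OEC Lp and OEC Ep were close on both. TEG3 minus OEC Ep was 0.53 on U34A and -2.88 on RAE2.0 (log2), with a mean of -1.18 ± 0.88 and a limma adjusted p of 0.49. TEG3 minus OEC Lp was likewise 0.44 on U34A and -2.93 on RAE2.0 (limma adjusted p = 0.584).

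Penk, the precursor of the enkephalins, read 589 in TEG3, 1791 in OEC Lp and 1618 in OEC Ep on U34A. On RAE2.0 it read 198 in TEG3, 462 in OEC Lp and 1484 in OEC Ep. TEG3 was lowest on both array types and all 6 signals were above the floor. The log2 difference of TEG3 from OEC Ep was -2.18 ± 0.50 (SE, n = 2 arrays each), which missed the threshold (limma adjusted p = 0.084). The log2 difference of TEG3 from OEC Lp was -1.41 ± 0.50 (limma adjusted p = 0.278). OEC Lp minus OEC Ep was 0.14 on U34A and -1.68 on RAE2.0.

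Vgf and Scg2, granin family proteins of the dense-core granule that are themselves cut into peptides, gave signals that differed between the array types. Vgf read 302 in TEG3, 57 in OEC Lp and 229 in OEC Ep on U34A. On RAE2.0 Vgf read 61 in TEG3, 21 in OEC Lp and 383 in OEC Ep. OEC Lp was below the floor on both, and TEG3 was above it on U34A alone. TEG3 minus OEC Ep for Vgf was 0.40 on U34A and -1.19 on RAE2.0 (log2), with a limma adjusted p of 0.674. OEC Lp minus OEC Ep for Vgf was -0.84 on U34A and -1.19 on RAE2.0, both bounds.

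Scg2, the precursor of secretoneurin, read 72 in TEG3, 62 in OEC Lp and 139 in OEC Ep on U34A. On RAE2.0 it read 106 in TEG3, 3276 in OEC Lp and 104 in OEC Ep. The single high value was that of OEC Lp on RAE2.0, at least 19.5-fold above both other populations on that array type. The U34A array of OEC Lp was below the floor, so the 2 types do not give the same order. TEG3 minus OEC Lp for Scg2 was -2.14 ± 1.11 on the log2 scale (limma adjusted p = 0.447).

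Calcrl, the receptor subunit shared by CGRP and adrenomedullin, was dim throughout. Its U34A probe set above the floor read 79 in TEG3, 207 in OEC Lp and 132 in OEC Ep. Its RAE2.0 probe sets read 32 and 142 in TEG3, 254 and 302 in OEC Lp, and 183 and 218 in OEC Ep. The order was the same in all 3 probe sets, with OEC Lp highest and TEG3 below the floor. The log2 difference of TEG3 from OEC Ep was -0.15 ± 0.29 (limma adjusted p = 0.819), and from OEC Lp -0.70 ± 0.29 (limma adjusted p = 0.337). OEC Lp minus OEC Ep was 0.65 on U34A and 0.47 on RAE2.0.

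The receptor activity-modifying proteins were measured by 1 RAE2.0 probe set each and have no replicate. Ramp1, the partner of the CGRP receptor, read 168 in TEG3, 374 in OEC Lp and 162 in OEC Ep, with OEC Lp alone above the floor and at least 2.23-fold above each of the others. Ramp2, the partner of an adrenomedullin receptor, read 644 in TEG3, 348 in OEC Lp and 254 in OEC Ep. TEG3 was 2.53-fold above OEC Ep and 1.85-fold above OEC Lp, and OEC Lp was 1.37-fold above OEC Ep. Ramp3, another partner of Calcrl but no member, read 707 in TEG3, 1620 in OEC Lp and 381 in OEC Ep on RAE2.0.

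Over the 7 members tested, 2 fell in TEG3 relative to OEC Ep, Npy and Calca, beside 3.61% of all 3131 genes on both array types (113 genes). Of the 5 Calca probe sets, 4 passed the filter through OEC Ep alone, so the call on Calca with the filter is not taken as support. No member was called higher (limma, with 0 of 7 at an unadjusted p under 0.05), beside 0.607% of all genes (19). At an unadjusted p under 0.05, 3 of 7 members were lower, beside 399 of all 3131 genes. All members in this comparison share the OEC Ep arrays with the comparison that led to the choice of Calcb. The calls on Npy and Calca did not hold when any 1 of the 6 arrays was left out (limma adjusted p of 0.0906 to 0.245 for Npy and 0.0858 to 0.245 for Calca), nor without the term for array type (0.104 for Npy and 0.0645 for Calca). With no filter on dim probe sets the limma adjusted p was 0.162 for Npy and 0.0272 for Calca, so there Calca was still called. Leaving out any 1 array left 0 of all genes called in either direction, so this holds as well for every call on other genes given below.

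In TEG3 relative to OEC Lp no member was called in either direction by limma. At an unadjusted p under 0.05, 1 of 7 was lower, Penk, and 0 were higher, beside 295 lower and 185 higher of all 3131 genes. Over all genes, 0.894% were called lower (28) and 0.16% higher (5). The median log2 difference over all genes was 0.04 for TEG3 minus OEC Ep, -0.01 for TEG3 minus OEC Lp and 0.10 for OEC Lp minus OEC Ep. In OEC Lp relative to OEC Ep, 3 of 8 members, Npy, Calca and Calcb, were at least 2-fold lower on both array types and 0 were at least 2-fold higher. Of all genes 6.83% were at least 2-fold lower on both types and 4.06% at least 2-fold higher. Since the list was made with this comparison known, nothing is read from these counts.

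**Figure D2:**
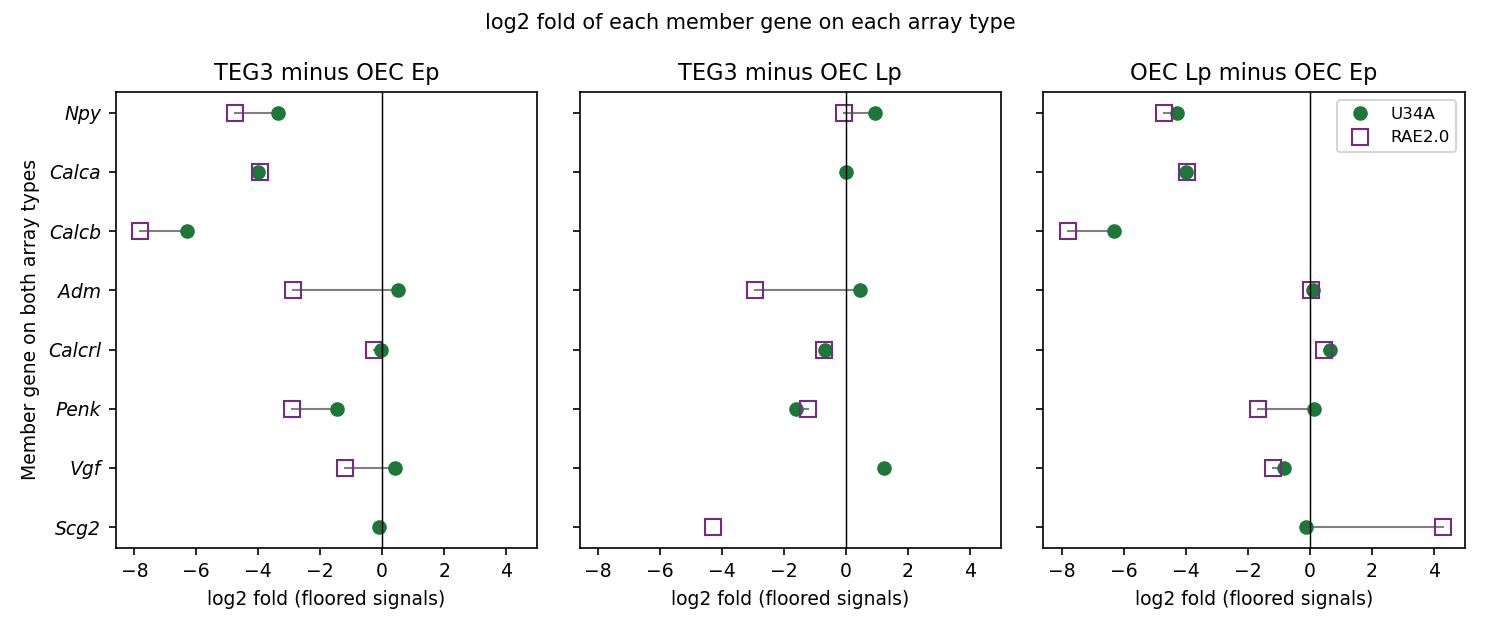
Log2 fold of the 8 members on both array types, from floored signals, for TEG3 minus OEC Ep, TEG3 minus OEC Lp and OEC Lp minus OEC Ep, with U34A as filled circles and RAE2.0 as open squares joined by a line; a type with both populations at the floor has no mark, and folds against a population at the floor are bounds. Calca has nearly the same value on both types against OEC Ep (-3.99 and -3.95 for TEG3), but these are mostly bounds set by the floor. Adm (0.53 and -2.88 for TEG3) and Scg2 (-0.12 and 4.28 for OEC Lp) differ between the types.

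The enzymes and granule proteins that make and store peptides were taken from a list of 26 genes, of which 20 exceeded the floor on some array and 16 did so on both array types. In TEG3 relative to OEC Ep, 2 of these 16 fell and 0 rose (limma, with 4 and 0 at an unadjusted p under 0.05). Their median log2 difference was -0.23, against 0.04 over all genes. Of all 3131 genes, limma called 113 lower and 19 higher in this comparison (399 and 279 at an unadjusted p under 0.05). These all-gene counts stand beside those of the lists below as well. In TEG3 relative to OEC Lp 0 were called (1 lower and 1 higher at an unadjusted p under 0.05 with limma), and the median was 0. In OEC Lp relative to OEC Ep, with no test, 2 of the 16 were at least 2-fold lower on both types and 0 at least 2-fold higher, beside 6.83% and 4.06% of all genes. The median there was -0.30.

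Cpe, carboxypeptidase E, which trims basic residues from peptide ends, had a scaled U34A signal of 1113 in TEG3, 4004 in OEC Lp and 5594 in OEC Ep. Its scaled RAE2.0 signal was 4496 in TEG3, 11740 in OEC Lp and 29700 in OEC Ep. The order TEG3, OEC Lp, OEC Ep was the same on both types. Cpe was 5.76-fold lower in TEG3 than in OEC Ep, a fall of 2.53 ± 0.34 on the log2 scale (limma adjusted p = 0.0225), while TEG3 minus OEC Lp was -1.62 (limma adjusted p = 0.102).

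Scg3, secretogranin III, which holds granins and peptides in the granule, was at the floor in TEG3 and OEC Lp on both types, against 572 on U34A and 1326 on RAE2.0 in OEC Ep. It fell in TEG3 relative to OEC Ep (log2 difference -2.57 ± 0.35, limma adjusted p = 0.023), with bounds of -2.16 on U34A and -2.98 on RAE2.0. Scg3 passed the filter through OEC Ep alone, so a fall was the only outcome open to it. Pcsk1n, an inhibitor of a prohormone convertase, was measured on RAE2.0 and read 391 in TEG3, 85 in OEC Lp and 1088 in OEC Ep, with OEC Lp below the floor. The remaining genes fixed by name were not called against OEC Ep: Pam, which forms the amide end of many peptides, differed by 0.19 (limma adjusted p = 0.763) and Scg5, a chaperone of the convertase Pcsk2, by -0.39 (limma adjusted p = 0.579). Furin, a protease that cuts many precursors, named here after its values were seen, differed by -1.52 (limma adjusted p = 0.0998). Pcsk2, Chga and Chgb were at the floor on every array where they were measured, and Pcsk1 was not analysed here.

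**Figure D3:**
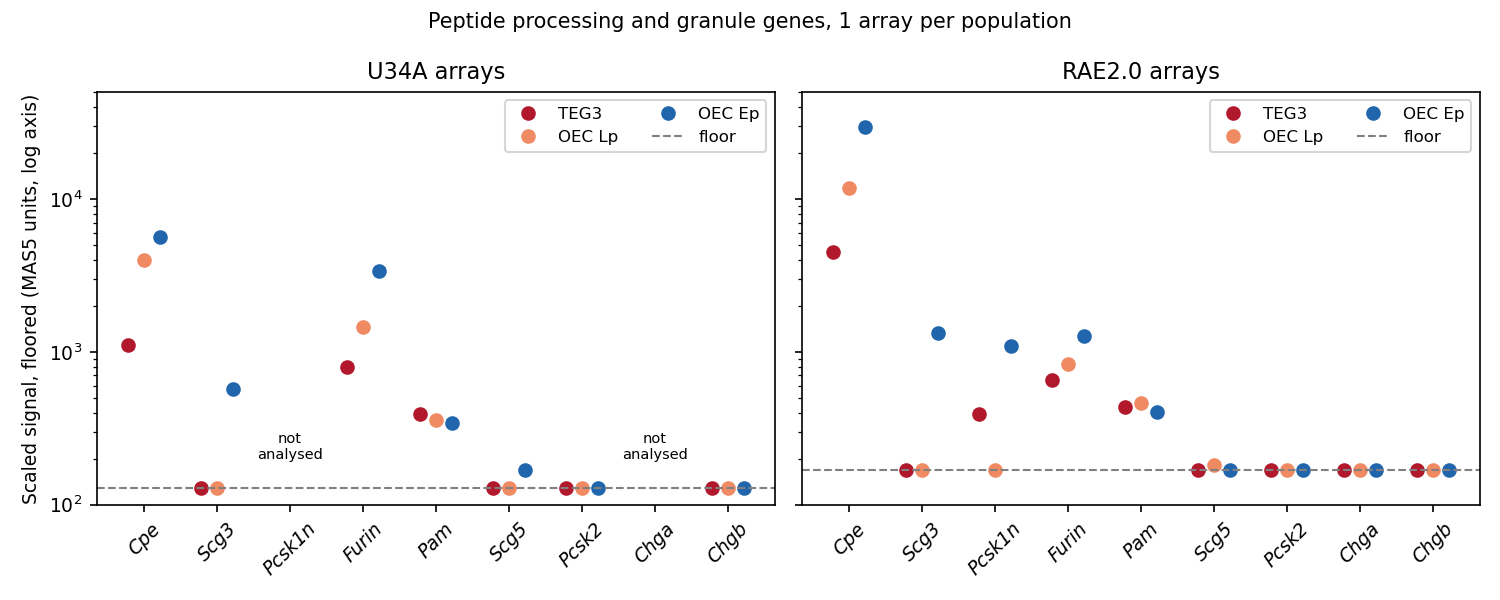
Scaled and floored signal in MAS5 units (log axis) of 9 genes of peptide processing and granules on the U34A and RAE2.0 arrays, with TEG3, OEC Lp and OEC Ep from left to right and the floor dashed. Cpe is lowest in TEG3 and highest in OEC Ep on both types (1113 in TEG3 and 5594 in OEC Ep on U34A), Scg3 is above the floor in OEC Ep alone, and Pcsk2, Chga and Chgb lie on the floor.

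Of 15 other genes of the calcitonin system, among them receptors, receptor partners and signalling proteins, 10 exceeded the floor on some array and 7 did so on both types, and 0 of these were called by limma in TEG3 against OEC Ep (1 lower and 0 higher at an unadjusted p under 0.05) or against OEC Lp (0 and 0). Their median log2 differences were -0.23 against OEC Ep and -0.39 against OEC Lp. Calcr, the calcitonin receptor, was at the floor on all arrays. Of 8 other genes of the neuropeptide Y system 4 exceeded the floor on some array and 2 did so on both types, with 0 called by limma, and 0 at an unadjusted p under 0.05, in either comparison. Npy1r, a neuropeptide Y receptor, differed by -0.75 between TEG3 and OEC Ep (limma adjusted p = 0.327). All 7 other opioid genes had probe sets on both types, and 5 exceeded the floor on some array, but 0 did so on both types. Pdyn, the prodynorphin gene, named after its values were seen, had a brightest U34A probe set at 2209 in TEG3, 4159 in OEC Lp and 4740 in OEC Ep. Pnoc, the precursor of nociceptin, named in the same way, had one at 2190 in TEG3, 1886 in OEC Lp and 1762 in OEC Ep. Both genes were at the floor on all RAE2.0 arrays, so the array types differ on whether they were above it. Oprd1 and Oprk1 were at the floor on all arrays, and Oprm1 was at the floor on RAE2.0.

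Of 41 other precursors of neuropeptides and peptide hormones 28 exceeded the floor on some array and 9 did so on both types, and limma called 0 in either comparison. At an unadjusted p under 0.05, 0 were lower and 1 was higher against OEC Ep, and none against OEC Lp. A list of 30 cyclic AMP genes held targets and also parts of the pathway itself, such as Creb1, Prkaca and Prkar1a, so it is no plain readout of the response. Of the 30, 19 exceeded the floor on both types. Limma called 0 of the 19 against OEC Ep (5 lower and 3 higher at an unadjusted p under 0.05) and 0 against OEC Lp (2 lower and 4 higher). Their medians were 0.37 against OEC Ep and 0.09 against OEC Lp.

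The summed OEC and Schwann cell, microglia and macrophage, and neuron markers were highest in OEC Ep, as were Npy, Calca, Calcb, Cpe and Scg3. Cpe differed from the OEC and Schwann cell sums in OEC Lp. There it stayed well above TEG3 (4004 against 1113 on U34A, 11740 against 4496 on RAE2.0), while those sums were close in TEG3 and OEC Lp. The summed scaled signal of 15 OEC and Schwann cell markers on U34A was 14730 in TEG3, 13510 in OEC Lp and 90320 in OEC Ep, and 10 of 15 fell in TEG3 relative to OEC Ep (limma; median log2 difference -3.45). On RAE2.0 the sum over 17 was 8862 in TEG3, 9873 in OEC Lp and 175600 in OEC Ep. OEC Ep thus had the highest sum on both types, as for the 3 precursors. Beside this count and the marker counts below, 3.61% of all genes were called lower in TEG3 than in OEC Ep. Markers above the floor in OEC Ep alone passed the filter through it, so a fall was the only outcome open to them.

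Markers of microglia and macrophages, the phagocytes that can be carried into primary cultures, summed over 10 genes to 995 in TEG3, 1068 in OEC Lp and 28110 in OEC Ep on U34A. On RAE2.0 the sum over 17 genes was 1281 in TEG3, 1410 in OEC Lp and 65850 in OEC Ep, with 14 of 17 above the floor in OEC Ep and with Cd74, Cx3cr1 and Cd163 at it. Of 6 on both types 4 fell in TEG3 relative to OEC Ep (limma). Aif1 and C1qb were at the floor in TEG3 and OEC Lp on both types and above it in OEC Ep. Itgam was at the floor in TEG3 and OEC Lp too, but on U34A also in OEC Ep. On that array type Csf1r and Cx3cr1 were likewise at the floor in OEC Ep, with 7 of 10 markers above it.

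Neuron markers summed over 13 genes to 6598 in TEG3, 2488 in OEC Lp and 39580 in OEC Ep on U34A, and over 18 genes to 10470 in TEG3, 6187 in OEC Lp and 47820 in OEC Ep on RAE2.0. On U34A 6 of 13 were above the floor in TEG3, 7 in OEC Lp and 9 in OEC Ep. On RAE2.0 12 of 18 were above it in TEG3, 7 in OEC Lp and 12 in OEC Ep. The brightest in OEC Ep were Nefl, Nefm and Uchl1, at 17330, 10490 and 8055 on U34A. Over the 15 that exceeded the floor on RAE2.0 the median log2 difference of TEG3 from OEC Ep was -0.25, against 0.11 over all genes. Syt1 and Nefh were at the floor in OEC Ep on both types, as were Omp and Gnal on U34A and Rbfox3, Snap25, Syn1 and Elavl4 on RAE2.0. Of 8 on both types 2 fell in TEG3 relative to OEC Ep (limma), and against OEC Lp 1 rose, Uchl1.

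Fibroblast and meningeal markers summed to 65650 in TEG3, 119500 in OEC Lp and 102500 in OEC Ep on U34A (12 genes), and to 52630 in TEG3, 214300 in OEC Lp and 187800 in OEC Ep on RAE2.0 (18 genes). Of 10 on both types 2 fell in TEG3 relative to OEC Ep (limma, median -0.88). Single markers did not all follow the sums: in OEC Lp relative to OEC Ep, with no test, 4 of the 10 were at least 2-fold lower on both types and 2 at least 2-fold higher. Over all genes these shares were 6.83% and 4.06%. On RAE2.0 alone, 5 of 16 were at least 2-fold lower and 7 at least 2-fold higher, beside 1203 and 1201 of all 11542 genes. Endothelial markers, Ramp3 among them, summed to 1420 in TEG3, 878 in OEC Lp and 1033 in OEC Ep on U34A (7 genes), and to 2479 in TEG3, 5165 in OEC Lp and 2027 in OEC Ep on RAE2.0 (13 genes). Limma called 0 of the 4 on both types against OEC Ep (0 lower and 1 higher at an unadjusted p under 0.05). The part of these cell types, and of the GAPDH ratio on U34A, in the differences of the members was not tested.

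**Figure D4:**
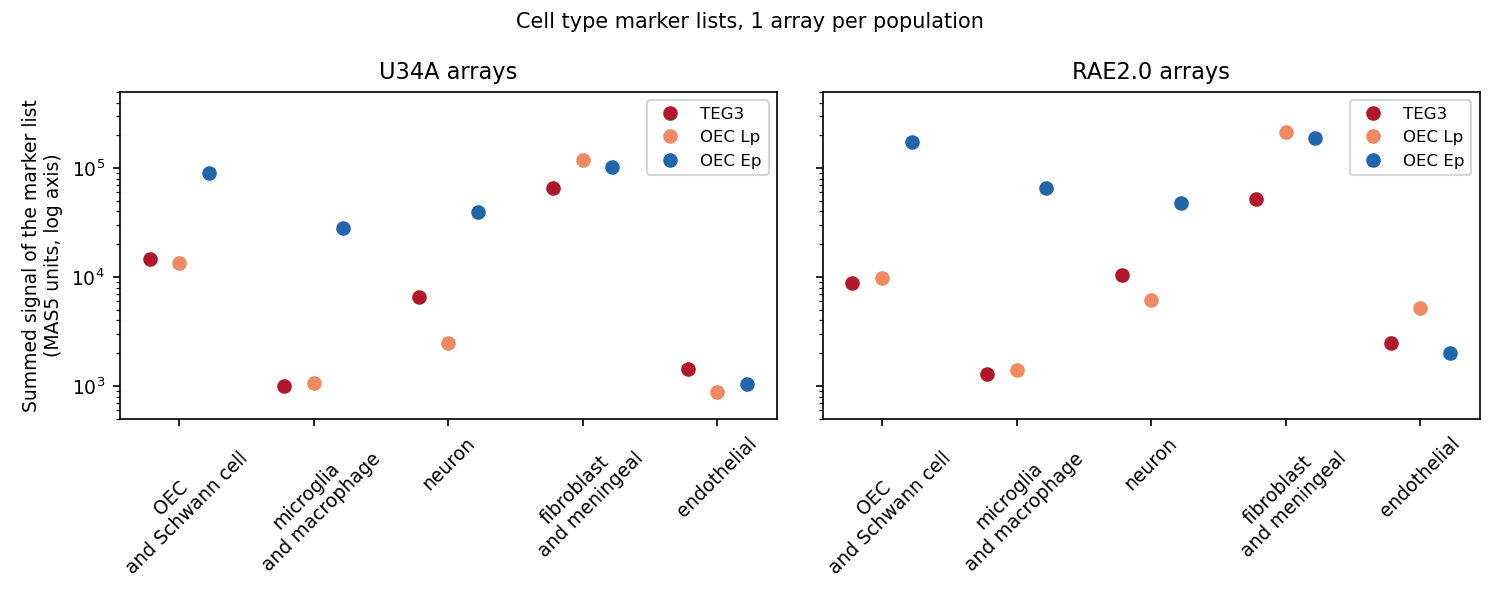
Summed scaled signal in MAS5 units (log axis) of the cell type marker lists on the U34A and RAE2.0 arrays, 1 point per array, with TEG3, OEC Lp and OEC Ep from left to right. The sums of OEC and Schwann cell markers and of microglia and macrophage markers are highest in OEC Ep on both types (90320 and 28110 on U34A), as is that of neuron markers. The sum of fibroblast and meningeal markers is highest in OEC Lp, though its single genes went both ways there relative to OEC Ep.

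The genes most like Npy and Calcb were found by the Euclidean distance of log2 signals, centred within each array type, over the 6 arrays. Nearest to Npy were the adhesion molecule L1cam (0.49), the glial transcription factor Sox10 (0.51) and the secreted glutathione peroxidase Gpx3 (0.52). Sox10 had a floored signal of 201.2 in TEG3, 128.4 in OEC Lp and 2906 in OEC Ep on U34A. On RAE2.0 Sox10 had 232.9 in TEG3, 168.1 in OEC Lp and 5745 in OEC Ep. Nearest to Calcb were the calcium-binding protein S100b (0.63), the neurofilament subunit Nefm (0.74) and the lysozyme Lyz2 (0.87), which belong to the OEC, neuron and macrophage marker lists in that order. S100b had 131.7 in TEG3, 128.6 in OEC Lp and 6123 in OEC Ep on U34A. These genes were picked for profiles close to those of Npy and Calcb. That OEC Ep stands far above the other populations in them therefore follows from the choice and is no separate result.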

How the data were processed

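Total RNA of 3 populations was hybridised to 6 Affymetrix arrays. The authors deposited linear signal intensities made with MAS5, per the submitters' processing notes; the tables hold whole numbers and no detection calls. The design text also names a filter on probe sets whose setting is not given.

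Each array was scaled to a common mean, trimmed by 2% at each end, within its type. The floor replaced any signal under the 40th percentile, and a probe set had to exceed this floor on at least 1 of 3 arrays. Probe sets with a single symbol in the platform annotation (7006 on U34A and 20826 on RAE2.0; several for 308 and 436, none for 1426 and 9780) were averaged per gene on the log2 scale. For the 3131 genes measured on both types, limma (3.58.1, R 4.3.3) fitted population and array type, with 2 residual and 3.5 prior degrees of freedom, and Benjamini-Hochberg adjusted p-values under 0.05 were called. The array type is also the replicate number, so it is the replicate block; the 2 types were normalized separately. The number of arrays limits the precision. The fit was tested on simulated data.

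The members and gene lists were chosen with earlier results of these data known. Named are all members, called list genes whose types share a sign (at most 4 per list, of which the text names those on peptides), 15 fixed genes of processing and reception, and the 3 nearest genes to Npy and to Calcb. Alternatives changed the block, scaling, floor, filter, probe set rule and arrays in the fit.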

Additional observations from a re-analysis of the deposited data

How the results depend on the processing

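The number of members called lower in TEG3 than in OEC Ep was 2, and it stayed at 2 with quantile normalization, a floor at the 20th or 60th percentile, no floor or the brightest probe set per gene. It was 0 without the replicate block of array type (16 genes lower in all, and 234 at an unadjusted p under 0.05 in either direction), 1 with no filter (Calca, the 1 gene called lower in all), 0 with probe sets above the floor on all 3 arrays (61 genes lower in all), where Npy and Calca were not tested, and 0 with only the 4 arrays of both populations (0 in all). Without 1 array the range was 0 to 0; a lone array was then assumed to vary like the others. Over all settings the limma adjusted p ran from 0.00775 to 0.245 for Npy (under 0.05 in 5 of 14) and from 0.00371 to 0.245 for Calca (6 of 14), and both kept their sign. No member was called in TEG3 against OEC Lp under any setting; the genes called lower in all there numbered 28, against 0 without the block, with no filter or with 4 arrays, 4 with the floor at the 20th percentile and 47 at the 60th. Signs turned for members that were not called: without 1 array, the log2 difference of TEG3 from OEC Ep ranged from -2.87 to 0.52 for Adm, from -1.10 to 0.31 for Vgf (0.09 without the OEC Ep RAE2.0 array) and from -1.19 to 1.07 for Scg2 (0.98 without the TEG3 RAE2.0 array). From OEC Lp it ranged from -0.15 to 1.02 for Npy, -0.011 to 0.026 for Calca, -2.94 to 0.45 for Adm, -0.088 to 1.32 for Vgf and -4.31 to 0.029 for Scg2, and for Npy it was -0.31 with the floor at the 20th percentile and -0.42 with no floor. The size of the called differences of TEG3 from OEC Ep moved with the floor. At the 20th and 60th percentiles the log2 difference was -4.87 and -3.03 for Npy, and -4.85 and -2.48 for Calca. The causes of these shifts were not tested.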

Other observations

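Other peptide genes, named after their values were seen, also differed between array types. Sst, the somatostatin precursor, had a brightest U34A probe set at 76 in TEG3, 4883 in OEC Lp and 90 in OEC Ep, against 174 in TEG3, 139 in OEC Lp and 57 in OEC Ep on RAE2.0, so that, as for Scg2, a single OEC Lp array held the high value. For Scg2 that array was RAE2.0 and for Sst it was U34A. Edn1, the endothelin 1 precursor, read 1064 in TEG3, 523 in OEC Lp and 365 in OEC Ep on RAE2.0 and kept that order on U34A, but the log2 difference of 1.22 between TEG3 and OEC Ep was not called (limma adjusted p = 0.114). Stc2, stanniocalcin 2, read 654 in TEG3, 87 in OEC Lp and 16 in OEC Ep on RAE2.0, with TEG3 alone above the floor, and was not analysed on U34A.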
